A study of Rattus norvegicus with 19 samples.

Results

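The genes described here are 9 genes of the connective tissue that covers the brain: Lum, Dcn, Ogn, Aspn, Mgp, Ccn3, Wfdc1, Myoc and Slc13a4. They were measured by 13 of the 31042 tested probe sets of a whole-genome rat array, 4 for Ogn, 2 for Aspn and 1 for each other gene. A probe set is a group of short probes read together as a single log2 signal. The genes were chosen by their mean signals, which were low at days 1 and 3 after a spinal lesion in these same arrays, so their early differences from control are described here without a test. All probe sets annotated to these symbols alone are included, whatever they showed.

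RNA came from the motor cortex of adult female Fischer 344 rats whose dorsal columns were cut by wire knife at the third cervical segment. Arrays were hybridised for control rats (n = 4) and for rats sampled 1, 3, 7, 14 or 49 days after the cut (n = 3 per time), all of the same strain and sex, with no transgene or drug named. The dissection took the lower part of the cortex, which holds layer V with its corticospinal neurons, and the injury itself lay far away in the cord. The labels name separate samples but do not say that each is a separate animal or that controls had a sham operation, so p-values measure the spread between these samples, which may be partly technical.

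The brain surface is wrapped in the leptomeninges, thin sheets whose fibroblasts deposit collagen and follow the larger vessels into the tissue. Lumican (Lum), decorin (Dcn), osteoglycin (Ogn) and asporin (Aspn) are small leucine-rich proteoglycans, secreted proteins that bind collagen fibrils and set their width and spacing. Matrix Gla protein (Mgp) inhibits calcification, CCN3 (Ccn3) is a matricellular protein that modulates adhesion and growth factor signals, Wfdc1 is a secreted protein of the whey acidic protein family, myocilin (Myoc) is a secreted glycoprotein best known from the eye, and Slc13a4 carries sulfate with sodium. Sulfate is used to build glycosaminoglycan chains such as those on decorin and lumican.

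With each gene read by its brightest probe set, the most closely correlated pairs across arrays were Ogn with Slc13a4 and Lum with Ogn. The start regions of these genes are shown so that those pairs can be read beside their sequence. They run from 250 bases before to 50 bases after the annotated start in the RefSeq annotation of the rat assembly GRCr8. Its promoter table held 5 of the 9 genes, without Dcn, Mgp, Ccn3 and Wfdc1. Capitals mark matches, on either strand, to TATAAA, the letters of the TATA box, or to GGAATG, the core letters bound by TEAD factors.
Ogn, chr17:15258946-15259245, minus strand: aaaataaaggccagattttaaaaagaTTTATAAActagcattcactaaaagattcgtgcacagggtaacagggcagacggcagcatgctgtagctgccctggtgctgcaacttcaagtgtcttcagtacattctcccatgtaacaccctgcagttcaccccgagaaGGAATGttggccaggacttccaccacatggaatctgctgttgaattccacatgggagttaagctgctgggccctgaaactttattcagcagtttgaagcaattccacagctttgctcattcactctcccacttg
Slc13a4, chr4:64955937-64956236, minus strand: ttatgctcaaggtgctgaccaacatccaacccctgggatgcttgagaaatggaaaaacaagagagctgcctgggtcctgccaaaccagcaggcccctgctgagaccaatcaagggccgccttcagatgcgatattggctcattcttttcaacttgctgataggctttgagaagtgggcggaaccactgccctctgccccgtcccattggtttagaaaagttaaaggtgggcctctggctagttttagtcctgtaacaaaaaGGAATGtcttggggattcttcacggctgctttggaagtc
Lum, chr7:34245456-34245755, plus strand: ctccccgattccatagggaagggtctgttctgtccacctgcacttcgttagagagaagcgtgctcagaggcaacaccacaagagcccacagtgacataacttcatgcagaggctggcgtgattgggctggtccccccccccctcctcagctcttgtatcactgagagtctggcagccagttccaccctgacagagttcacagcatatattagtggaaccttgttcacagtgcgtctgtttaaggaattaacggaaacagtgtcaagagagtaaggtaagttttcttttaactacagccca
GGAATG was found in the windows of Ogn and Slc13a4, and in 14.2% of all 33469 promoters of the table. TATAAA was found in those of Ogn and Myoc, against 14.2% of all promoters. The run of 8 capitals early in the Ogn window, far before the annotated start, is a TATAAA match on each strand, overlapping. The GGAATG match of Slc13a4 lies among the 50 bases after the start. Whether any match is used was not tested. Lum held neither motif, and none of the 5 windows held TGANTCA, the letters bound by AP-1, which 7.33% of all promoters hold, or GTAAACA, those bound by forkhead factors, which 3.78% hold. In the same annotation Dcn lies next to Lum on chromosome 7, with the family member Kera on the other side of Lum, and Ogn and Aspn lie on either side of Omd, which encodes osteomodulin, on chromosome 17.

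Of the 19 arrays 2 stood apart, day 14 replicate 2 and day 49 replicate 2. Their median correlation with the other arrays was 0.931 and 0.969, against 0.994 to 0.997 in the other 17. In day 14 replicate 2 the 3' signal of beta-actin exceeded its 5' signal by 2.24 on the log2 scale, against 0.88 to 1.29 in those 17, which can mark degraded or poorly copied RNA. Results that rest on these arrays are given with and without them. Across the 19 arrays the mean of 38 other meningeal fibroblast genes had a median correlation of 0.68 with the 9 genes. For the mean of 15 choroid plexus genes this median was 0.32. It was 0.56 for the mean of mural, 0.54 for that of myelin and 0.21 for that of microglia and macrophage genes. Over 17 arrays these were, in the same order, 0.84, 0.19, 0.76, 0.79 and 0.75. Single genes varied within a list, as the median over 19 arrays was 0.73 for Islr and -0.42 for Spp1, both meningeal fibroblast genes. Whether surface tissue supplied the signals was not tested. The probe sets of Dcn, Mgp, Lum and Myoc had mean signals above those of 92.2% to 98.8% of all probe sets. The signals of the 2 Aspn probe sets were dim, above 32.1% and 20.5% of all.

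**Figure D1:**
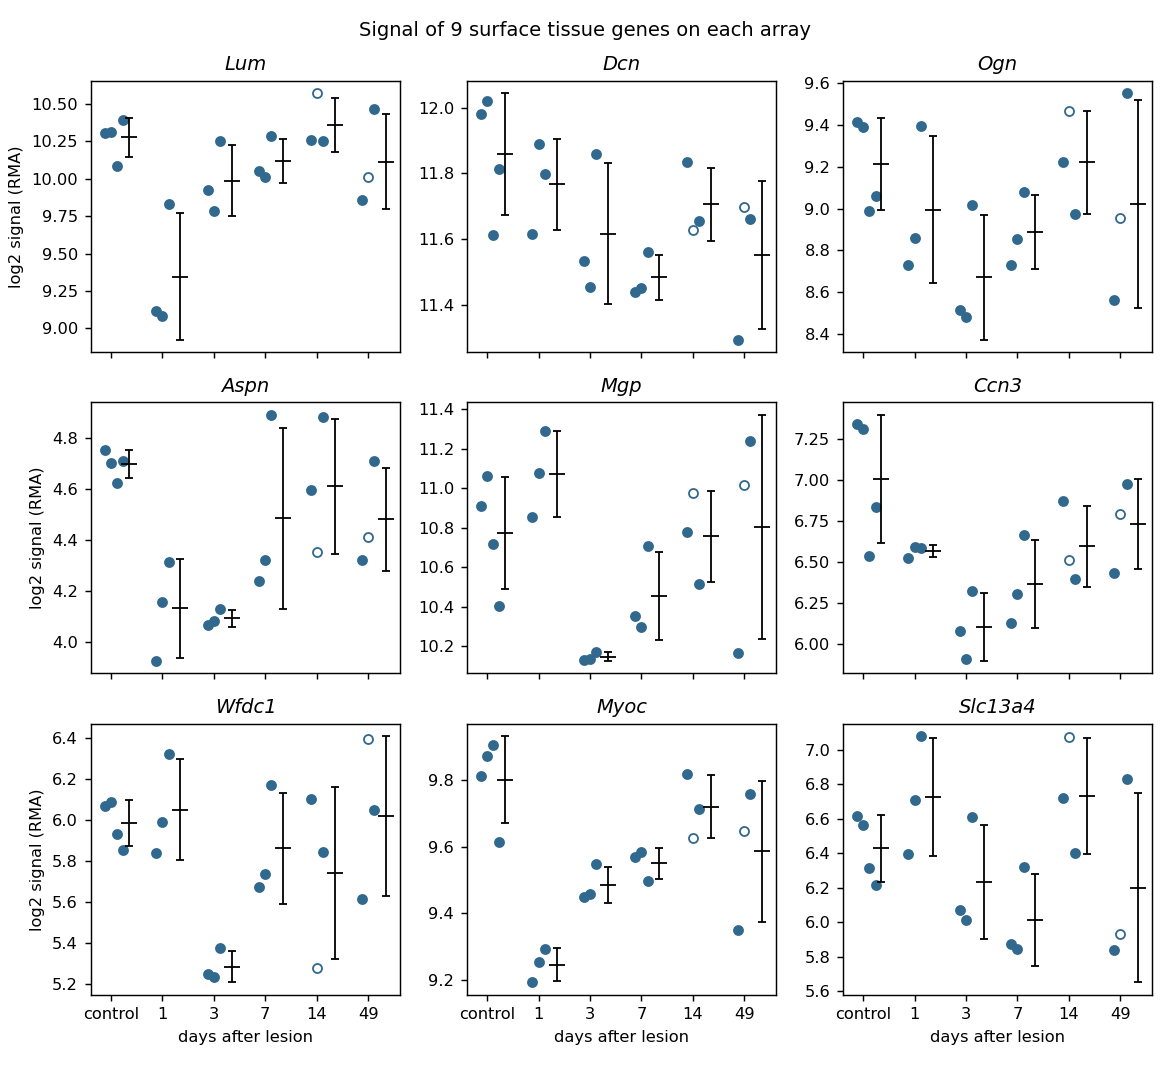
Log2 signal of the brightest probe set of each of the 9 genes (vertical axes, 1 scale per gene) in control arrays and at days 1, 3, 7, 14 and 49 after the lesion (horizontal axis). Points are arrays, open points are day 14 replicate 2 and day 49 replicate 2, and bars are the group mean with its SD. Lum and Myoc were lowest at day 1, Mgp, Wfdc1, Ccn3, Ogn and Aspn at day 3.

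Among the collagen-binding proteoglycans, lumican stood out at day 1. Its log2 signal was 9.12, 9.09 and 9.83 in day 1 arrays, against 10.31, 10.31, 10.09 and 10.39 in control arrays. All 3 day 1 arrays lay below all control arrays, with replicate 3 nearer to them than the other two. The mean difference was -0.93 (SE 0.18, n = 3 against 4), a signal 0.53 times that of control, and -1.17 without day 1 replicate 3, the nearest to control. In bulk samples fewer cells of a type and less RNA per cell cannot be told apart. At day 3 Lum was at 9.92, 9.79 and 10.25 in lesion arrays, of which replicate 3 lay inside the control range, a mean difference of -0.29 (SE 0.18). Over the later times the mean was 10.27 ± 0.13 in control (SD, n = 4), 10.12 ± 0.15 at day 7, 10.36 ± 0.18 at day 14 and 10.11 ± 0.32 at day 49 (n = 3 each), and arrays of each later time overlapped with the control arrays.

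Asporin, which binds collagen at the same place as decorin, was low at both early times. Its brighter probe set read 3.93, 4.16 and 4.31 at day 1 and 4.07, 4.08 and 4.13 at day 3, against 4.75, 4.70, 4.62 and 4.71 in control arrays. The 6 early arrays all lay below the 4 control arrays. The differences were -0.56 (SE 0.15) at day 1 and -0.60 (SE 0.15) at day 3, and the dimmer probe set gave -0.62 and -0.64. By day 7 replicate 3 had reached 4.89, above every control array, while replicates 1 and 2 stayed at 4.24 and 4.32.

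Osteoglycin, also called mimecan, was measured by 4 probe sets. The brightest read 8.73, 8.86 and 9.40 at day 1 and 8.52, 8.48 and 9.02 at day 3, against 9.42, 9.39, 8.99 and 9.06 in control arrays. Replicate 3 lay within the control range at both times and the other 2 arrays lay below it. The differences from control were -0.22 (SE 0.22) at day 1 and -0.54 (SE 0.22) at day 3. Over its 4 probe sets the day 3 difference ran between -0.71 and -0.54, and the day 1 difference between -0.32 and -0.22.

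The group means of Decorin spanned 0.37 on the log2 scale, the narrowest range among the 13 probe sets. Its signal read 11.98, 12.02, 11.61 and 11.81 in control arrays, 11.62, 11.89 and 11.80 at day 1, 11.53, 11.45 and 11.86 at day 3 and 11.44, 11.45 and 11.56 at day 7. Its mean was lowest at day 7, 11.48 ± 0.07 (SD, n = 3) against 11.86 ± 0.19 in control (n = 4), and at day 7 all lesion arrays lay below all control arrays. The early differences were -0.09 (SE 0.13) at day 1 and -0.24 (SE 0.13) at day 3.

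Among the secreted regulators, matrix Gla protein and Wfdc1 separated day 3 from day 1. Mgp read 10.85, 11.08 and 11.29 at day 1 and 10.13, 10.14 and 10.17 at day 3, with control arrays at 10.91, 11.06, 10.72 and 10.41. The day 3 arrays agreed to within a few hundredths and lay below every other group except day 49 replicate 1 at 10.16, while the day 1 arrays overlapped with control. The difference from control was 0.30 (SE 0.21) at day 1 and -0.63 (SE 0.21) at day 3, and day 3 was 0.92 below day 1 (difference -0.92, SE 0.23).

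Wfdc1 followed the same course. It read 5.84, 5.99 and 6.32 at day 1 and 5.25, 5.23 and 5.38 at day 3, with control arrays at 6.07, 6.09, 5.93 and 5.85. All day 3 arrays lay below all control arrays and the day 1 arrays lay on both sides of them. The difference was -0.70 (SE 0.20) at day 3, a signal 0.62 times that of control, and 0.07 (SE 0.20) at day 1. Outside day 3, an array as low was day 14 replicate 2 at 5.28, 1 of the 2 that stood apart.

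The largest mean difference of day 3 belonged to Ccn3. It read 6.53, 6.59 and 6.58 at day 1 and 6.08, 5.91 and 6.32 at day 3, with control arrays at 7.34, 7.32, 6.53 and 6.84. The day 3 arrays all lay below the control arrays, although the control arrays themselves spread widely. The difference was -0.44 (SE 0.20) at day 1 and -0.91 (SE 0.20) at day 3 (a signal 0.53 times that of control).

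Myocilin had narrow groups at the early times. It read 9.81, 9.87, 9.91 and 9.61 in control arrays, 9.19, 9.25 and 9.29 at day 1, 9.45, 9.46 and 9.55 at day 3 and 9.57, 9.58 and 9.50 at day 7. At each of these 3 lesion times all lesion arrays lay below all control arrays, and the day 1 arrays also lay below all day 3 arrays. The difference from control was -0.56 (SE 0.09) at day 1, -0.32 (SE 0.09) at day 3 and -0.25 (SE 0.09) at day 7.

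The sulfate carrier Slc13a4 differed from the matrix genes at day 1. It read 6.40, 6.71 and 7.08 at day 1 and 6.07, 6.01 and 6.61 at day 3, with control arrays at 6.62, 6.57, 6.31 and 6.22. Both early groups overlapped with control, with differences of 0.30 (SE 0.24) at day 1 and -0.20 (SE 0.24) at day 3. Its lowest mean, 6.01 ± 0.27, was at day 7 (n = 3), beside 6.43 ± 0.19 in control (SD, n = 4), and its highest, 6.73 ± 0.34, at day 14.

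**Figure D2:**
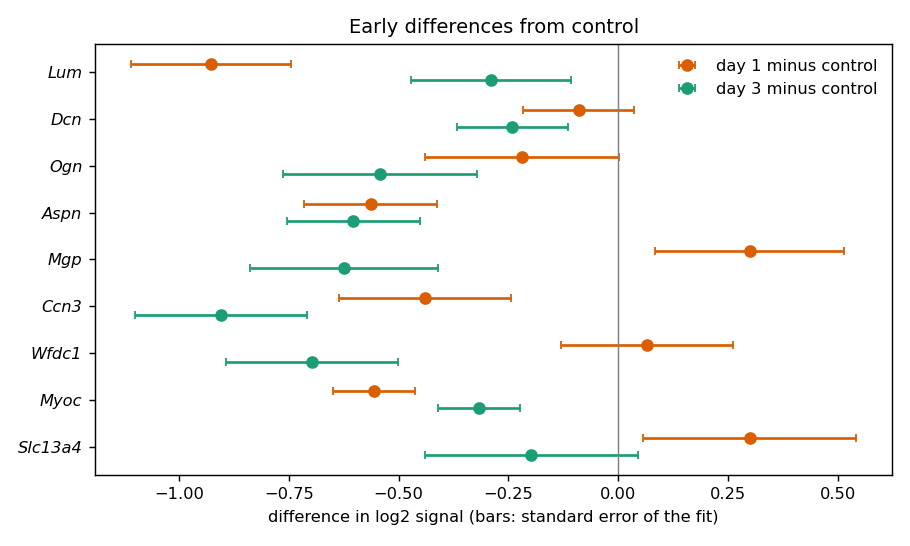
Mean log2 difference from control of each of the 9 genes (rows) at day 1 and day 3 (horizontal axis), with the standard error of the fit as bars. Lum, Myoc and Aspn lay furthest below 0 at day 1, and all 9 genes lay below 0 at day 3, Ccn3 furthest at -0.91.

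Across the set, 10 of 13 probe sets, covering 6 of 9 genes, were below control at day 1, with a median difference of -0.24, and 13 of 13 at day 3, with a median of -0.60. Of all probe sets 46.7% were below control at day 1 and 51.3% at day 3, with medians of 0.01 and 0.00. The rule chose the genes on these values, so the counts only describe the choice. At day 1 the arrays of 4 member probe sets, those of Lum, Aspn and Myoc, lay below all control arrays, as did 2.54% of all probe sets. At day 3 this held for 7 member probe sets, covering Mgp, Ccn3, Wfdc1, Myoc, both of Aspn and 1 of Ogn, and for 2.82% of all. The time of the lowest mean differed within the set, being day 1 for Lum and Myoc, day 3 for Ogn, Aspn, Mgp, Ccn3 and Wfdc1, and day 7 for Dcn and Slc13a4. Neighbouring groups in the order of means overlapped for most genes. The exceptions were Aspn, whose day 49 arrays lay above its day 1 arrays, Mgp, whose day 7 arrays lay above its day 3 arrays, and Myoc, whose day 3 arrays lay above its day 1 arrays.

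Whether the genes differed from control after day 3 can be tested, although these comparisons share the control arrays with those that chose the genes. None of the 13 probe sets passed the threshold in limma, a linear model with moderated variances, at an adjusted p of 0.05, at days 7, 14 or 49. The percentage of all probe sets that passed was 0 at each of the 3 times. At an unadjusted p under 0.05 the count was 4 of 13 at day 7, 0 at day 14 and 3 at day 49, and over all 31042 probe sets 275, 4069 and 4783. With array weights the member count at day 49 was 3, while 21.0% of all probe sets were called.

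At day 7 all 13 probe sets were below control, with a median difference of -0.32 and a range of -0.64 to -0.12, while 47.7% of all probe sets were below control. The largest differences were those of Ccn3 (-0.64, SE 0.20, limma unadjusted p = 0.00477, adjusted p = 1.00) and the dimmest Ogn probe set (-0.59). The difference was -0.37 (SE 0.13) for Dcn and -0.25 (SE 0.09) for Myoc, at limma unadjusted p of 0.00943 and 0.0164. The day 7 arrays of Dcn, Myoc and this Ogn probe set, 3 of 13 probe sets, lay below all control arrays, as did 4.19% of all probe sets.

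At day 14 the differences from control had no common sign. They were below 0 for 8 of 13 probe sets and ran from -0.41 for Ccn3 to 0.30 for Slc13a4, with limma adjusted p between 0.365 and 0.989. No member probe set lay wholly below the control arrays, against 2.62% of all probe sets. At day 49 the differences were below 0 for 11 of 13, against 47.9% of all probe sets. They lay between -0.58 and 0.04, with limma adjusted p between 0.306 and 0.944. Again none lay wholly below control, against 4.80% of all. The SD was larger at day 49 than in any other group for Mgp, Slc13a4, Myoc and Dcn. This also held for the dimmer Aspn probe set and for all Ogn probe sets but the dimmest. The day 49 difference from control was -0.31 (SE 0.13) for Dcn and -0.22 (SE 0.09) for Myoc, at limma unadjusted p of 0.028 and 0.0355.

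Day 14 against day 7 uses no control array and none of the arrays that chose the genes. By this comparison 1 of 13 probe sets, that of Wfdc1, was lower at day 14, against 35.6% of all probe sets, and the other 12 were higher. The median difference was 0.23 over the 13, against 0.06 over all probe sets. Slc13a4 had the largest difference. It read 6.72, 7.07 and 6.40 at day 14 and 5.87, 5.85 and 6.32 at day 7, with no overlap between the groups. The difference was 0.72 (SE 0.26, limma unadjusted p = 0.0142, adjusted p = 0.606), and 0.55 without day 14 replicate 2, which held the highest value. The count of member probe sets called was 0, against 0% of all probe sets, with 1 member and 1676 of all under an unadjusted p of 0.05. Day 49 against day 14 and against day 7 also called 0 of 13 members, at 0% of all, with 0 members under an unadjusted p of 0.05. The moderated F test of limma over the late times called 0 (0% of all). Its lowest p among the members was that of Slc13a4, 0.0369 before adjustment (limma adjusted p = 0.473). With array weights 2, 6 and 5 members were called in these last 3 tests, beside 9.62%, 18.9% and 15.6% of all probe sets.

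The question of whether the genes moved together on each array was asked of the deviations of each array from the mean of its own group, which the choice of genes did not use. On 5 arrays all 9 genes lay above their group means, namely control replicates 1 and 2 and replicate 3 of days 1, 3 and 49. On 4 arrays all 9 lay below, namely replicate 1 of days 1, 3 and 49 and day 3 replicate 2. At least 7 of the 9 genes were on 1 side on 15 of 19 arrays. Day 7 replicate 3 had 8 genes above, so replicate 3 was the high array at 4 of the 5 lesion times. At day 14 replicate 3 had 2 genes above.

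**Figure D3:**
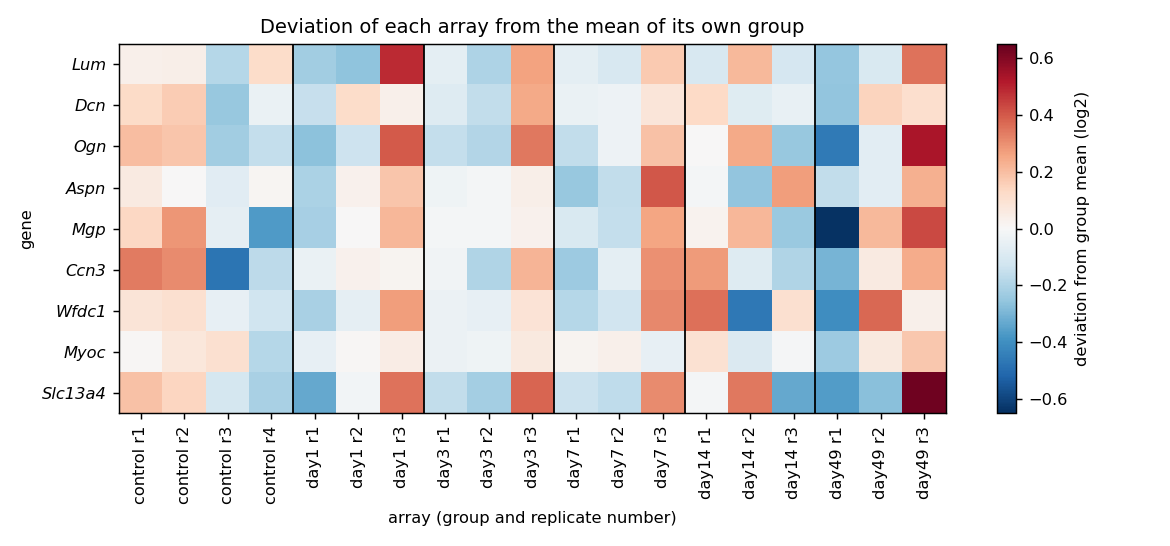
Deviation of each array from the mean of its own group (log2, colour) for the 9 genes (rows) on 19 arrays (columns, in groups of control and days 1, 3, 7, 14 and 49). Whole columns share a colour on most arrays, such as day 49 replicate 1, with 0 of 9 genes above the group mean, and day 49 replicate 3, with 9 of 9.

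The deviations were large where a column was of 1 sign. On day 49 replicate 1 they had a median of -0.30 and reached -0.64 for Mgp, and on day 49 replicate 3 a median of 0.24 and a highest value of 0.63. Slc13a4 read 6.83 on day 49 replicate 3 and 5.84 on day 49 replicate 1, and Ogn 9.55 and 8.56. Between 39.1% and 64.1% of all probe sets lay above their own group mean on any array, with the highest share on day 14 replicate 2. On the 9 arrays with all genes on 1 side this share lay between 46.8% and 54.8%.

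All 36 pairs of genes had a positive correlation of deviations over the 19 arrays, with a median Pearson r of 0.55 and a range of 0.24 to 0.95. The median Spearman rho was 0.52, from 0.20 to 0.90. By permutation of arrays within groups (100000 draws, two-sided), 11 of the 36 pairs passed an adjusted p of 0.05 for r and 14 for rho, adjusted over the 36 pairs. Without the 2 arrays farthest from the median of the first gene, 35 of 36 stayed above 0, with a median r of 0.52, Lum with Myoc being the exception at -0.02. Without day 14 replicate 2 and day 49 replicate 2 all 36 were above 0 with a median of 0.70. Within the 9 arrays of days 7, 14 and 49, none of which chose the genes, all 36 were above 0 with a median of 0.59. In the 10 arrays of control and days 1 and 3 the median was 0.65. A correlation over arrays takes in everything the arrays share, such as dissection, RNA quality and normalization. The share of positive or passing pairs among other genes is not given here, so these counts of pairs have no background beside them.

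In these pairs each gene was read by its brightest probe set. Ogn and Slc13a4, the proteoglycan and the sulfate carrier whose start regions are shown above, were then the closest pair (r = 0.95, rho = 0.90, permutation p = 9e-05, adjusted p = 0.00252, 0.93 without the 2 farthest arrays). Dcn and Ccn3 had r = 0.86 (rho = 0.83, permutation p = 0.00014, adjusted p = 0.00252). Lum and Ogn had r = 0.88 (rho = 0.83, permutation p = 0.00076, adjusted p = 0.00684). Lum and Slc13a4 had r = 0.83, and Ogn and Mgp r = 0.82, at adjusted permutation p of 0.00967 and 0.00684. Among the 31041 other probe sets, that of Slc13a4 ranked first for likeness to the brightest Ogn probe set, and that Ogn probe set first for likeness to Slc13a4. The second Ogn probe set in brightness had r = 0.96 with that of Dcn.

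Lum and Dcn, which are neighbours on chromosome 7, followed each other less (r = 0.46, rho = 0.46, permutation p = 0.109, adjusted p = 0.157). The difference between these correlations was not tested. Aspn and Myoc were in none of the 11 pairs. Their median r was 0.43 and 0.48 over their 8 pairs each, beside 0.69 for Ogn. Lum, which was in 2 of the 11 pairs, had a median of 0.45, below that of Myoc. Over 17 arrays the medians were 0.61 for Aspn, 0.50 for Myoc, 0.63 for Lum and 0.84 for Ogn. The values for Aspn rest on its brighter probe set, which had r = 0.43 with the brightest Ogn probe set. The dimmer Aspn probe set had r = 0.80 with it, and 0.81 over 17 arrays. With the second Ogn probe set in brightness, the brighter and dimmer Aspn probe sets had r of 0.50 and 0.42. Over 17 arrays these were 0.48 and 0.62. Pairs of the dimmer Aspn probe set with the other genes were not tested. The correlations of Wfdc1 moved with the arrays that stood apart. Its r with Slc13a4 was 0.24 over 19 arrays and 0.91 over 17, since Wfdc1 was 0.46 below and Slc13a4 0.34 above its group mean on day 14 replicate 2 (deviations -0.46 and 0.34).

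**Figure D4:**
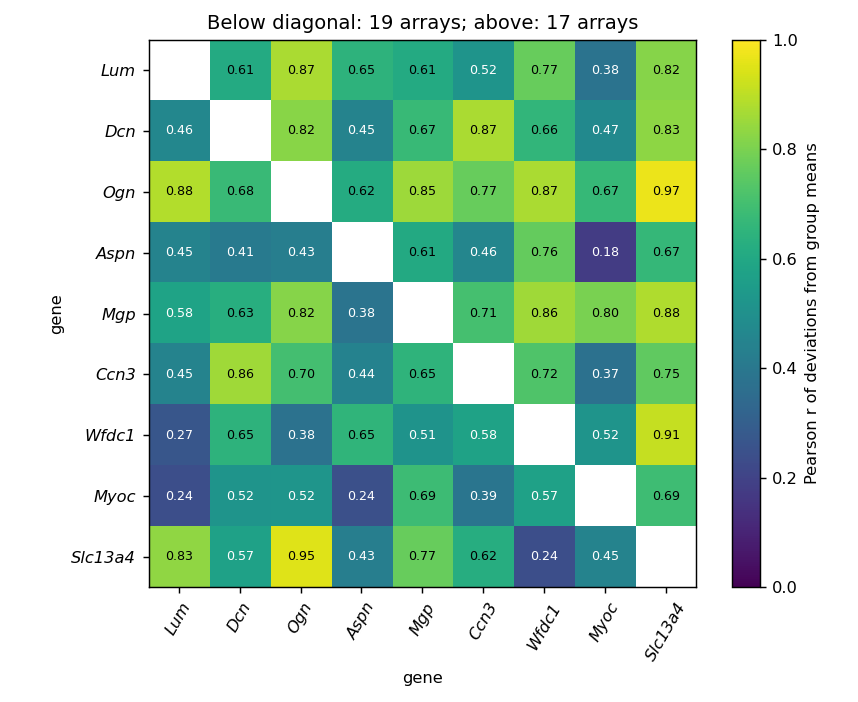
Pearson r of deviations from group means for each pair of the 9 genes (rows and columns), each by its brightest probe set. Values below the diagonal are over 19 arrays and above it over 17, without day 14 replicate 2 and day 49 replicate 2. All values are above 0, with Ogn and Slc13a4 highest at 0.95 and 0.97.

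The probe sets of Ogn did not all follow each other equally. Its 3 other probe sets had r of 0.69 to 0.77 with the brightest, but the third in brightness had r = 0.30 with the second and r = 0.93 with the dimmer probe set of Aspn. Over 17 arrays these were 0.68 and 0.97. The Aspn probe sets had r = 0.51 with each other, and 0.73 over 17 arrays. The second Ogn probe set in turn had r = 0.96 with that of Dcn, the highest of the named genes at or above the median signal.

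The genes most like the 9 in their deviations over the 19 arrays were named as the 5 with the highest r for each, among genes at or above the median signal. For Lum the first was Ecm2 (r = 0.92), a leucine-rich matrix protein, followed by the complement protease C1s, the gap junction gene Gjb2, which meningeal cells express, Mpeg1 of macrophages, and Ogn. Ogn itself was followed by Slc13a4, Gjb2 (0.93), C1s, Islr, a secreted protein of fibroblasts, and Ecm2. Slc13a4 was followed by Ogn, C1s, Omd (0.91), Cldn11 and Gjb2. Dcn had Slc6a13 (0.82), a GABA and taurine carrier of the meninges, after Ogn and Ccn3, and then Pgf and Cp. Ccn3 was followed by Ogn, Dcn, Ctnnal1, Plpp3 and Tgm2.

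The other members had few of these in common. Mgp was followed by Krt86 (0.91), Gsn, Nccrp1, Il10rb and LOC102549828, Wfdc1 by Scamp2 (0.93), Mxra8, Cpxm2, Tagln and Serpinf1, and Myoc by Igf2 (0.85), Aebp1, Ctsk, Vtn and Foxo4. Aspn, the dim one, was followed by Csnk1e (0.87), Chtf8, Rhoj, Cmtm3 and Slc44a1. Genes outside the set that were among the 50 closest of at least 5 members were Arhgdib, Islr, C1r and Cpxm2, each for 6 members, and C1s for 5. Their mean r with those members lay between 0.78 and 0.82. Of these, Cpxm2, a carboxypeptidase-like matrix protein, averaged 5.89 ± 0.36 at day 3 (n = 3), against 6.58 ± 0.39 in control (SD, n = 4). Islr averaged 7.49 ± 0.28 at day 3, against 7.84 ± 0.13 in control. C1r was at 8.04 ± 0.19 at day 3 and 8.06 ± 0.15 in control.

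Each member was also ranked against all probe sets for likeness to each other member. In 22 of the 72 ordered pairs the other member was within the 310 closest of 31041 probe sets, and in 31 without the 2 arrays that stood apart. The median rank was 1035 over 19 arrays and 596 over 17. Ccn3 had 5 and Ogn and Dcn 4 of their 8 partners there, and Wfdc1 0, or 5 over 17 arrays.

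Other genes of the same family and tissue were read from lists, with the 9 genes left out of each. Of 10 other small leucine-rich proteoglycans, 8 were below control at day 3 (median difference -0.13) and 6 at day 1, and limma called 0 of them at either time. Omd, which lies between Ogn and Aspn, averaged 6.43 ± 0.34 at day 1 and 5.38 ± 0.28 at day 3 (n = 3 each), with control at 6.18 ± 0.22 (SD, n = 4). Its order of early means was that of Mgp, Slc13a4 and Wfdc1. Ecm2 averaged 5.78 ± 0.50 at day 1 and 5.67 ± 0.21 at day 3, with control at 6.25 ± 0.28. The differences of Bgn (-0.39) and Prelp (-0.26) at day 3 did not pass the test either. The mean over the 10 genes was 5.20 to 5.31 in day 3 arrays, against 5.36 to 5.60 in control arrays, without overlap.

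Of 38 meningeal fibroblast genes, 17 were below control at day 1, 28 at day 3 (median -0.10) and 28 at day 7, and 12 at day 14. The list mean lay between 6.89 and 7.15 in day 3 arrays, against 7.04 and 7.22 in control arrays, and overlapped. At day 3 the smallest p belonged to Mfap4 (-0.99), Omd, the organic cation carrier Slc47a1 (-0.57) and Nupr1 (-0.55), and limma called 0 of 38. At day 1 limma called 1, Crabp2, a retinoic acid carrier, which rose by 0.78 (adjusted p = 0.00852, and 0.0558 without control replicate 4). Mfap4, an elastic fibre protein, averaged 5.04 ± 0.07 at day 1 and 4.93 ± 0.17 at day 3, with control at 5.92 ± 0.32. At day 1 the list thus held a gene that rose, Crabp2, beside Mfap4 at -0.88, which did not pass the test.

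Of 25 fibrillar collagens and their partners, 19 were below control at day 1 and 21 at day 3 (median -0.16), with 0 called by limma. The smallest p at day 3 belonged to Lox, which cross-links collagen (-0.61), and Col12a1 (-0.56). Of 21 other secreted matrix and matricellular genes 16 were below control at day 3 (median -0.08), among them the CCN family members Ccn2 (-0.90) and Ccn5 (-0.42), and 9 at day 1, when limma called 1, Spon2, which rose by 0.81 (adjusted p = 0.00768). Over all probe sets limma called 11 at day 1 (0.0354%), of which 2 were lower (0.00644%), and 0 at day 3 (0%), with 510 and 282 under an unadjusted p of 0.05. With the replicate number as a block, the day 1 count was 3. Crabp2 and Spon2 passed in that fit (limma adjusted p = 0.0332 and 0.0465). Without day 1 replicate 2 the count was 0, and each had a limma adjusted p of 0.0861.

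The list means were set beside the 9 genes as deviations from group means, as a description over the arrays they share. The 10 other proteoglycans had a median r of 0.74 with the 9 genes and the 38 meningeal fibroblast genes 0.68, and both were positive with 9 of 9. Over 17 arrays these were 0.85 and 0.84. The proteoglycan and meningeal fibroblast lists share Bgn, Fmod and Omd, so they are not independent. The meningeal fibroblast list also shares Col1a1, Col1a2, Col3a1 and Pcolce with the collagen list, and Fbln1 and Spp1 with the secreted matrix list. Choroid plexus genes had a median r of 0.32, and 0.19 over 17 arrays, with 7 of 9 positive. Layer I to IV neuron genes had 0.08 and layer V and VI neuron genes 0.12, and 0.30 and 0.55 without the 2 arrays that stood apart.

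Other lists moved with the 9 genes as well. The median r was 0.56 for mural genes, 0.54 for oligodendrocyte and myelin genes and 0.21 for microglia and macrophage genes, and 0.76, 0.79 and 0.75 over 17 arrays. Over 17 arrays Dcn and Ccn3 had r of 0.875 and 0.819 with the myelin mean, against 0.723 and 0.633 with the meningeal fibroblast mean. Mgp was closer to the mural mean (0.948 against 0.883) and Lum to the microglia mean (0.885 against 0.841). Ogn, Aspn, Wfdc1, Myoc and Slc13a4 were closer to the meningeal fibroblast mean than to any of these. The mural list shares Vtn with the meningeal fibroblast list. The myelin list holds Cldn11, named above among the genes closest to Slc13a4. At day 3 the mural list mean was 5.68 to 5.72, against 5.69 to 5.87 in control arrays, the endothelial mean 6.79 to 6.85 against 6.82 to 6.92, the myelin mean 7.35 to 7.51 against 7.37 to 7.59, and the choroid plexus mean 5.91 to 5.95 against 5.81 to 6.02. At day 1 the astrocyte mean was 7.02 to 7.06, against 6.81 to 6.88 in control arrays, without overlap, while Lum, Myoc and Aspn were low. It also lay above all control arrays at day 7 (6.911 to 6.917) and day 14 (6.958 to 7.145). At day 14 Lum, Myoc and Aspn differed from control by 0.08, -0.08 and -0.09. At day 1 the median difference of the 10 astrocyte genes was 0.04, and 7 of them were above control. Agt, the angiotensin precursor, rose by 1.04 (limma adjusted p = 0.00688, 0.0182 with the replicate block and 0.0861 without day 1 replicate 2), and Gfap, the astrocyte filament protein, differed by 0.64 without passing (adjusted p = 0.615). Of 13 mural and 13 endothelial genes 10 each were below control at day 3, of 10 myelin genes 6 and of 15 choroid plexus genes 9. RMA signals have no 0, so absence of a marker cannot be read from them. The part of these cell types and of array quality in the signals of the 9 genes was not tested.

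**Figure D5:**
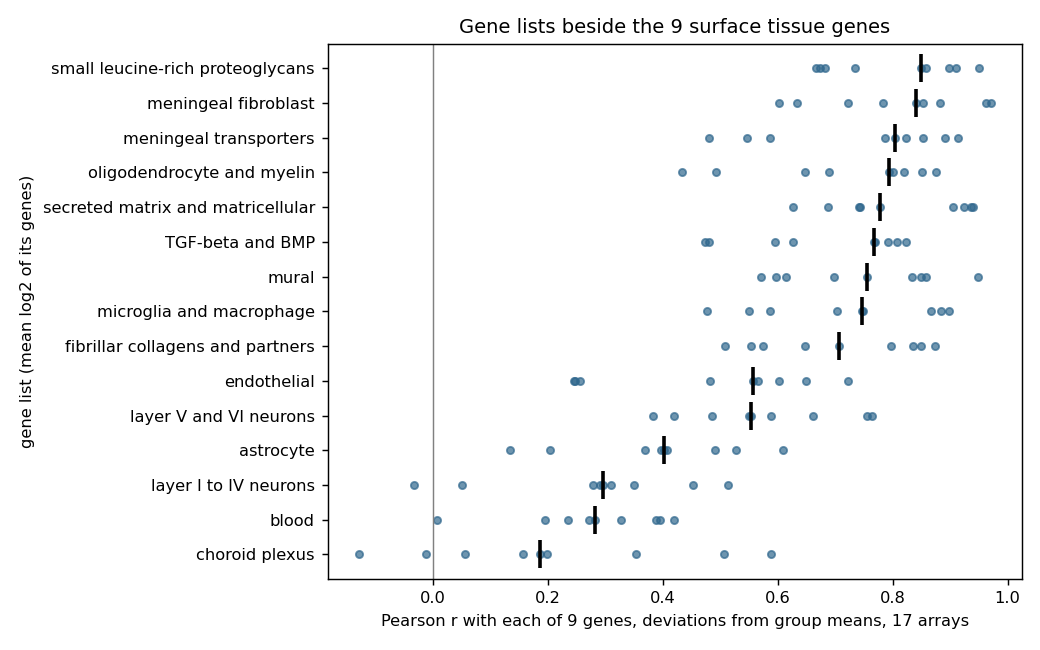
Pearson r between the mean of each gene list (rows) and each of the 9 genes (points), as deviations from group means over 17 arrays, with the median as a bar. The proteoglycan and meningeal fibroblast lists had the highest medians, 0.85 and 0.84, and the choroid plexus list the lowest, 0.19.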

How the data were processed

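Each array has a log2 signal per probe set, deposited by the authors after RMA, per the submitters' processing notes, which name no version. RMA corrects background, forces all arrays to the same quantiles and summarises the probes, and so hides any change common to all transcripts. The number of arrays limits the precision, and scan batches were not analysed here.

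The 31042 probe sets left after 57 array controls were fitted with limma 3.58.1 (R 4.3.3), as 6 group means over 19 arrays with eBayes (13 residual and 2.76 prior degrees of freedom), two-sided, with Benjamini-Hochberg adjustment over all of them. Gene symbols are those of the platform annotation, brought up to date with the RefSeq gene table of GRCr8. A gene with several probe sets was represented by the brightest. Deviations from group means were correlated between genes, with p from permutation within groups. The members and the gene lists were chosen with earlier results of these data known. Named genes were all members, the 5 closest genes of each, genes among the 50 closest of 5 members, genes of the same family beside them, and up to 4 genes of smallest p per list. The fit was tested on simulated data. Alternatives were 2 other normalizations, a filter on dim probe sets, eBayes trend, array weights, the beta-actin 3' minus 5' covariate, the replicate number as a block, and leaving out arrays. Deviations of same-numbered day 1 and control arrays correlated at 0.166, 0.117 and 0.269. Arrays of different number were not compared and the labels do not state a pairing, so these values do not establish one. The replicate number was a block in an alternative fit only, and the main fit and the permutations ignore it. In no comparison tested on the members did all same-numbered pairs exceed 0.1. Plots were drawn with matplotlib 3.10.9.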

Additional observations from a re-analysis of the deposited data

Results flagged for a closer look

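In the control group the dimmest of the 4 Ogn probe sets read 7.28 on replicate 3, far below the other 3 control arrays. The gap to the nearest of them was 0.863 of the range of the group, above the limit for 4 samples at the usual 95% level. None of the other 12 probe sets passed this limit, and chance alone marks about 1 group in 20. The differences from control given for this probe set rest in part on that array.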

How the results depend on the processing

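Of the 78 differences between late groups or from control, 13 probe sets in each of 6 comparisons, 43 kept their sign under every alternative and 35 changed sign under at least 1. None of the 78 was called in limma without array weights. At day 7 against control all 13 kept it, and at day 14 against day 7 11 of 13, the exceptions being Wfdc1 and an Aspn probe set. At day 14 and day 49 against control 7 and 6 of 13 kept it, at day 49 against day 14 4 and against day 7 2. The count of member probe sets called was 0 at days 7, 14 and 49 against control and in the late comparisons under all settings but array weights. With array weights it was 3 at day 49 against control, 2 at day 49 against day 14, 6 at day 49 against day 7 and 5 in the F test, and Dcn passed at day 49 (-0.30). With each array left out in turn it was 0 throughout. With the replicate number as a block the member counts were 0 as well and the median pairwise r was 0.56. Over all probe sets the day 1 count of 11 became 175 with array weights, 68 without the 2 arrays that stood apart, 23 with the beta-actin covariate and 3 with the replicate block, and ran from 0 to 24 with an array left out. It was 0 without day 1 replicate 2, 2 without control replicate 4, 5 without day 1 replicate 1, 6 without control replicate 1 or 2, and 24 without day 14 replicate 2. The counts of 0 at days 3 and 14 became 2 and 9 with array weights, and that at day 14 up to 3 with an array left out. At day 49 against control the count of 0 became 6514 with array weights and 2435 without day 49 replicate 1. At day 49 against day 14 it became 2985 and 14, against day 7 5863 and 258, and the F test gave 4850 with array weights. The cause was not tested. Crabp2, Spon2 and Agt at day 1 each had a limma adjusted p of 0.0861 without day 1 replicate 2, and Crabp2 0.0558 without control replicate 4. The early differences of Lum, Myoc, Aspn and Ccn3 kept their sign under each alternative. That of Wfdc1 at day 1 ran from -0.07 to 0.17. The median pairwise r ran from 0.51 to 0.70 over 8 other settings and from 0.38, without day 49 replicate 1, to 0.65 with an array left out. The Aspn probe sets fall below the filter on dim probe sets, which gives no value for them.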

Other observations

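Of 21 genes of TGF-beta and BMP signalling, which drive matrix production in fibroblasts, 7 were below control at day 1 and 12 at day 3, with medians of 0.05 and -0.01, and limma called 0 of them. Their mean had a median r of 0.37 with the 9 genes over 19 arrays and 0.77 over 17. Of 12 other carriers of the meninges, 5 were below control at day 1 and 8 at day 3, with 0 called. This list shares Slc6a13, Slc13a3, Slc22a2, Slc22a6 and Slc47a1 with the meningeal fibroblast list, so the lists are not independent. Slc6a20a, a carrier of proline, averaged 8.02 ± 0.14 at day 1 (n = 3), against 7.17 ± 0.10 in control (SD, n = 4), a difference of 0.84 with a limma adjusted p of 1.00. Slc6a13 was at 5.85 ± 0.30 at day 1 against 5.65 ± 0.11 in control, and Slc47a1 at 5.13 ± 0.19 at day 3 against 5.70 ± 0.21. The mean of the carriers had a median r of 0.55 with the 9 genes, and 0.80 over 17 arrays.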
